A study of Homo sapiens with 4 samples.

Results

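The replication-dependent histone genes encode the linker histone H1 and the core histones H2A, H2B, H3 and H4 that package newly copied DNA. Their genes were taken as the protein-coding rows of the deposited count table whose symbol starts with HIST1H, HIST2H or HIST3H and that held at least 10 reads over all 4 libraries. Of 58735 genes in the table, 70 rows had such a symbol, and 31 of these reached 10 reads, while 14 held 0 reads. At this depth 21 of the 31 reached 1 CPM in at least 1 library, where CPM is a gene's count per unit of sequencing depth, with depths scaled by TMM (a trimmed mean of gene-wise log ratios).

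The 4 libraries came from HEK293T cells, a human embryonic kidney line, whose own PBRM1 gene had been disrupted with CRISPR. Every group carried that disruption and received a plasmid for GFP-tagged PBRM1 for 48 h: the mutants P1048R, T1202K and C1233W, or the unaltered protein (WT). PBRM1 belongs to PBAF, a complex that remodels nucleosomes, and the exchanged residues lie in its BAH (bromo-adjacent homology) domains. There was 1 library per construct, so differences are between libraries and carry counting error only. The sources used here do not say whether the disrupted cells were 1 clone, or whether polyadenylated RNA was selected.

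These genes lie in clusters that hold many near-identical copies, with H2A and H2B genes often paired head to head. Their transcription is switched on as cells enter S phase by NPAT, which works with HINFP at H4 genes and with the octamer-binding factor POU2F1 at H2B genes. Their mRNAs have no introns and usually end in a conserved stem-loop in place of a poly(A) tail, bound by SLBP and cleaved with the help of the U7 small nuclear ribonucleoprotein. Some histone genes also give longer, polyadenylated transcripts that run past the stem-loop.

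The stem-loop was located because it separates the short histone mRNA from the longer annotated transcripts of the same gene. It was searched for on the transcript strand as a run of 16 bases (GGNNCTT, any base, T, any base, AGNNCC), and 136 of 19922 protein-coding genes of GENCODE release 29 (0.683%) held it, 31 of them among the 70 histone rows. Of the 31 genes with 10 reads, 22 had a match, in 6 letter sequences. Those below have the stem-loop in capitals, with 5 bases before and 9 after it, 5′ to 3′ on the gene's strand (GRCh38).
HIST2H4A: ccaaaGGCCCTTTTTAGGGCCgaccacttg
HIST1H4H: ccaaaGGCCCTTTTCAGGGCCgcccacttt
HIST1H2AC: ccaaaGGCTCTTTTCAGAGCCcccctaccg
HIST1H2BD: ccaaaGGCTCTTTTAAGAGCCacgcatgtt
HIST1H3E: ccaaaGGCTCTTCTCAGAGCCaaccacttt
HIST1H2AG: ccaacGGCTCTTTTCAGGGCCacccacgtc
In this order, the capitals lie at chr1:149833032-149833047 on the plus strand, chr6:26285131-26285146 on the minus strand, and chr6:26124669-26124684, chr6:26158587-26158602, chr6:26225596-26225611 and chr6:27133515-27133530 on the plus strand. The form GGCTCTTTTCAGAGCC was shared by 12 genes of the H2A, H2B and H3 families, and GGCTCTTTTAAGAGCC by HIST1H2BC, HIST1H2BD and HIST1H2BF. All 5 H4 genes had GGCCC at the start of the stem: HIST1H4I, HIST2H4A and HIST2H4B shared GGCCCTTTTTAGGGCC, and HIST1H4E and HIST1H4H shared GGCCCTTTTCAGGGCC.

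Genes with reads had longer annotated models. In 19 of the 31, an annotated transcript ran at least 100 bases past the stem-loop, against 3 of the 39 rows under 10 reads. The annotated model stopped at the stop codon in 7 of the 31 and in 28 of the 39. Such a model leaves out the untranslated end past the stop codon, so a missing match there does not mean that the gene lacks a stem-loop. If the counting used these models, reads lying wholly in the untranslated ends past the stop codon were not counted. Several exons were annotated in 12 of the 31 and in 0 of the 39. The median exonic length was 1237 bases in the 31 and 411 bases in the 39. A longer model collects more reads at equal abundance, and its part in which genes reached 10 reads was not tested.

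**Figure D1:**
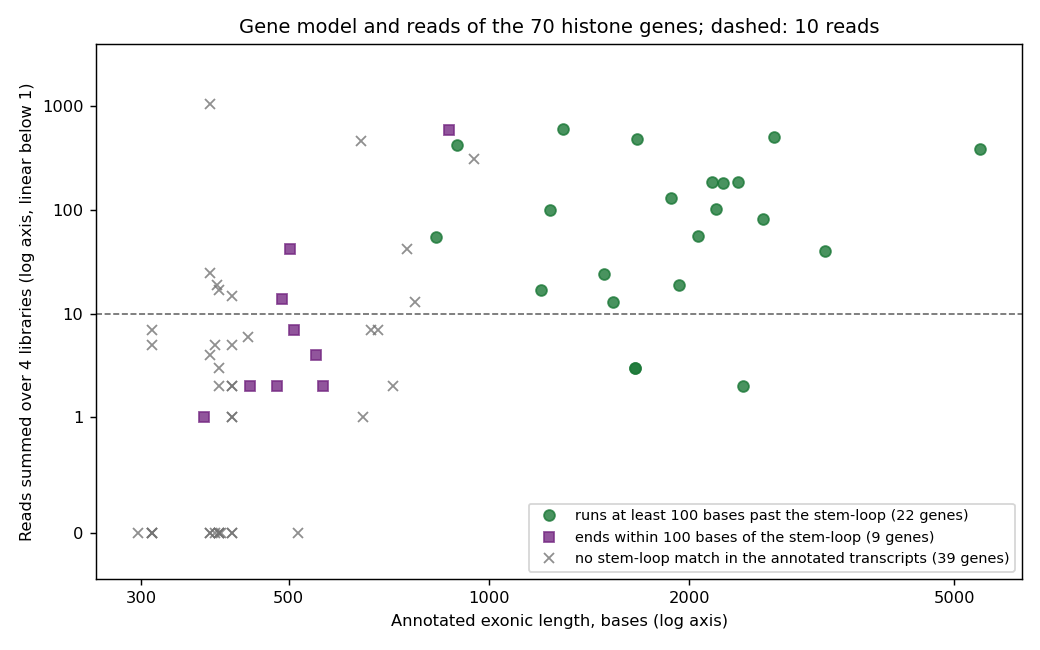
Reads summed over the 4 libraries (vertical, log axis, linear below 1) against annotated exonic length in bases (horizontal, log axis) for the 70 histone genes, 1 point per gene, with the symbol giving how far the annotated transcripts reach past the stem-loop. Of the 22 genes that run at least 100 bases past it, 19 lie above the dashed line at 10 reads. Of the 39 without a match in their annotated transcripts, 9 do.

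Most other listed RNAs that lack a poly(A) tail held few or no reads. Of 27 such RNAs listed, 14 held 0 reads in every library, among them RN7SK and RMRP, and 2 reached 1 CPM. The signal recognition particle RNA RN7SL2 held 1762 reads in P1048R, 1813 in T1202K and 1966 in C1233W, against 2284 in WT. SNORD17, a small nucleolar RNA, held 21, 18 and 15 reads in the same mutants and 24 in WT. Without RN7SL2 the other 26 held 39 reads in P1048R, 37 in T1202K and 33 in C1233W, against 35 in WT. Scaled for depth these were 3.267, 3.267 and 3.192 CPM in the same mutants and 3.745 CPM in WT. Nearly all of the difference of the list thus lay in RN7SL2.

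The promoters were set side by side because the families are switched on through different elements. RefSeq sequences (GRCh38.p14) of the 250 bases before the start were found for 29 of the 31 genes; for genes with several starts the first entry was used. Both strands were searched for TATAAA of the TATA box, for CCAAT as bound by NF-Y, for the octamer with the letters ATTTGCAT, and for GGTCCG as the core of the H4 element to which HINFP binds. GGTCCG was present in 5 of 5 H4 promoters, each time 46 bases before the start, whereas 9.33% of all 27305 RefSeq promoters held it anywhere. It was also present in 1 of 6 H2A promoters (HIST2H2AC) and in 1 of 14 H2B promoters (HIST2H2BE), which face each other. The promoters of HIST2H4A and HIST2H4B have the same letters over all 250 bases, so they are not separate cases. For the H4 genes, the 30 bases around GGTCCG follow, with GGTCCG in capitals.
HIST2H4A: ggttttcaatctGGTCCGatactcttgtat
HIST1H4H: agtcttcaattaGGTCCGaattcccggcat
HIST1H4E: agtcttcatttaGGTCCGaattcccggcat
HIST1H4I: ggttttcagtctGGTCCGcagaggttaccc
They lie at chr1:149832599-149832628 (plus strand), chr6:26285563-26285592 (minus strand), chr6:26204552-26204581 and chr6:27139224-27139253 (both plus strand), and the window of HIST2H4B has the letters of HIST2H4A. For HIST1H4H, HIST1H4E and HIST1H4I the window lies within the GENCODE gene model, which starts further upstream than the RefSeq entry. The octamer was present in 10 of 14 H2B and 4 of 6 H2A promoters and in none of the other families, against 1.66% of all promoters. CCAAT was found in 25 of 29, against 33% of all promoters, and TATAAA in 16 of 29, against 11.1%, with 0 of 5 among the H4 genes. H2A and H2B genes that face each other share much of these windows, so their matches are not independent. A match is a description of the letters only.

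The promoters of HIST2H4A, a gene past the size rule (at least 2-fold, defined with the ratios) in every mutant, and of HIST1H2BK, the gene with the highest level per length, show both layouts whole. The first has 1 GGTCCG in capitals, and the second has TATAAA (also as TTTATA and overlapping), CCAAT (also as ATTGG) and ATTTGCAT in capitals.
HIST2H4A: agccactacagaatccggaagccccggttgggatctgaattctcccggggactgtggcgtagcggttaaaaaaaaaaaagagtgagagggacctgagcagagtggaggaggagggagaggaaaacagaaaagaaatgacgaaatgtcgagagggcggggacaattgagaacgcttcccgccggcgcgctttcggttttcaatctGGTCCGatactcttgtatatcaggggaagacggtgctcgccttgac
HIST1H2BK: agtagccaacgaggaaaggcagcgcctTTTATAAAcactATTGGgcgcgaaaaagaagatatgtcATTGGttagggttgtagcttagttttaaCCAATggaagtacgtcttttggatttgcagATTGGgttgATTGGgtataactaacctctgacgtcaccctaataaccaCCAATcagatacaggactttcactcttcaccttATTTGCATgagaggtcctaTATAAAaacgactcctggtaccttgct
They span chr1:149832407-149832656 on the plus strand and chr6:27146859-27147108 on the minus strand, and each runs 5′ to 3′ towards its gene. HIST1H2BK had 6 CCAAT matches, and HIST2H4A had 0.

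**Figure D2:**
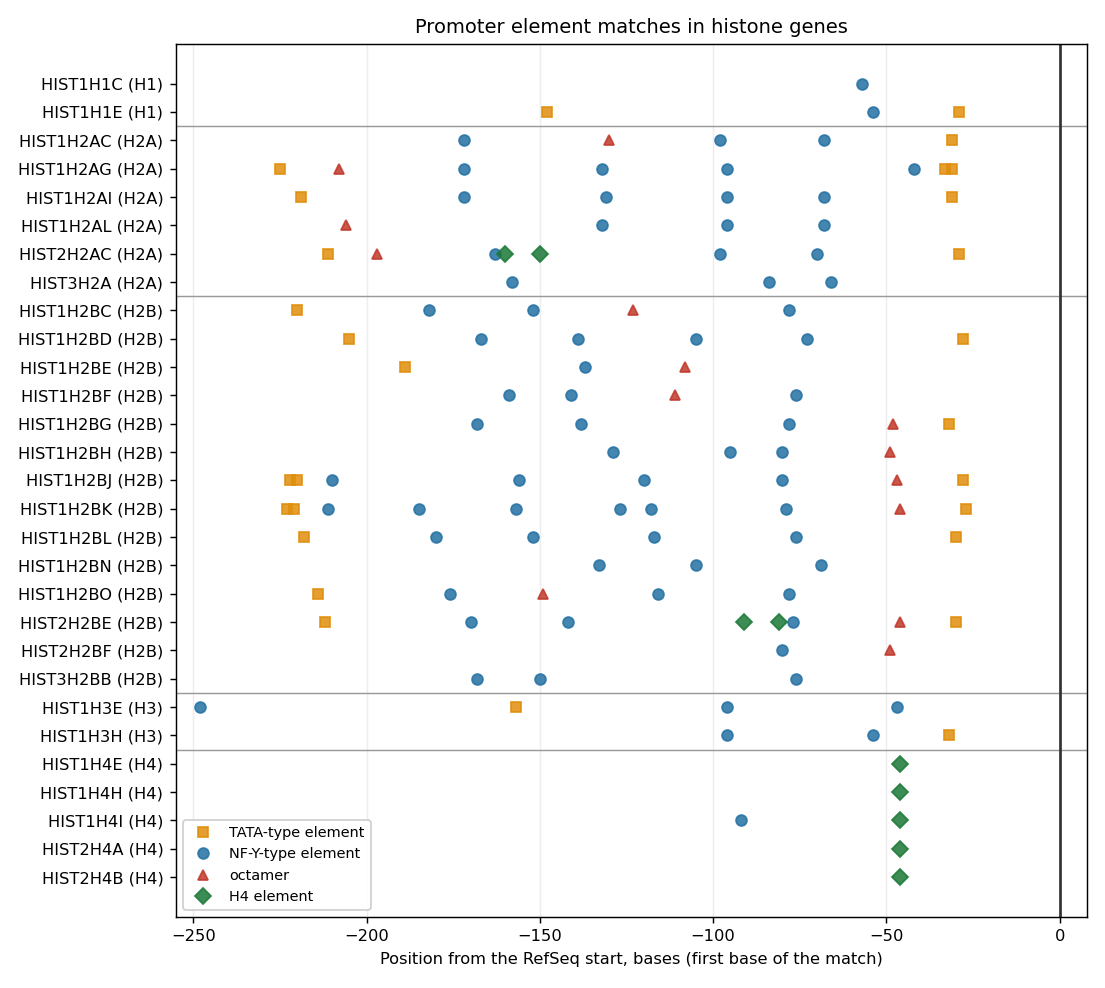
Position of each element match in bases from the RefSeq start (horizontal, the start at 0 on the right) for the 29 histone genes with a RefSeq promoter, grouped by family, with the symbol and colour giving the element. The H4 element stands 46 bases before the start in all 5 H4 genes, and 6 of the 10 H2B octamers stand 46 to 49 bases before it.

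The libraries held 11205322 reads for P1048R, 10993748 for T1202K, 10348552 for C1233W and 10246250 for WT, so that a floor of 3 reads corresponded to between 0.251 and 0.321 CPM. Transcripts of PBRM1 stood at 8805 CPM in P1048R, 15262 in T1202K and 60509 in C1233W, against 22768 in WT. All 10 listed markers of HEK293-type cells were detected at 1 CPM or more. Of 15 markers of blood, liver, skin, breast, fibroblasts, endothelium and muscle, 3 held 0 reads and 4 reached 1 CPM, and their sum was 3.43 CPM in P1048R, 2.83 in T1202K and 7.55 in C1233W, against 3.32 in WT.

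The histone genes together stood lower with WT PBRM1 than with any mutant. The 31 genes summed to 165.0 CPM in P1048R, 154.3 in T1202K and 144.6 in C1233W, against 108.0 in WT, from 1970, 1747 and 1495 reads in the mutants and 1009 in WT. The log2 ratio of the sums to WT was 0.61 for P1048R, with a 95% counting interval of 0.50 to 0.72. For T1202K it was 0.51 (0.40 to 0.63), and C1233W had 0.42 (0.31 to 0.54). All 3 comparisons use the same WT library, so a deviation of that library alone would enter each of them. In bulk RNA, more cells making an mRNA and more of it per cell cannot be told apart. The PBRM1 level, the markers of other cells and RN7SL2 also differed between the libraries, as given above, and their part in this difference was not tested.

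Most single genes differed by less than 2-fold, but the share past the size rule was above that of all genes. A gene passed the size rule when its log2 ratio, after adding 0.5 to each count, was at least 1 in size and its 95% counting interval excluded 0. Of the 21 genes at 1 CPM, 5 (23.8%) passed against WT in P1048R. There 7.5% of the 16262 genes at 1 CPM passed, 4.48% higher and 3.02% lower. In T1202K 3 (14.3%) passed (background 5.15%, 2.95% higher and 2.21% lower). In C1233W 4 (19%) passed (background 5.4%, 4.19% higher and 1.21% lower). All of the histone genes that passed were higher in the mutant, and 0 of 21 were past the rule downward. The median log2 ratio of the 21 was 0.67 in P1048R, 0.55 in T1202K and 0.55 in C1233W, and that of all genes was -0.04, -0.01 and -0.01. Over all 31 genes the medians were 0.67, 0.52 and 0.56, with 23, 21 and 23 ratios above 0. The 21 were kept through a minimum in any 1 library, so their count and median depend on that choice and are given as a description. Scaled by total counts, 8 of 21 passed in P1048R and 7 of 21 in T1202K. At a minimum of 5 CPM, which HIST2H4A does not reach, 12 members remained. Of these, 3 passed in P1048R, 1 in T1202K and 2 in C1233W. The share of all genes past the rule was not computed under these settings, so the counts are a description.

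WT was the lowest library in 15 of the 21 genes, whereas it was the lowest for 31.0% of all genes at 1 CPM. P1048R was the highest in 11 of the 21, against 23.6% of all genes. HIST1H2BC, an H2B gene, and HIST1H2BH, another, were the genes with WT highest.

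**Figure D3:**
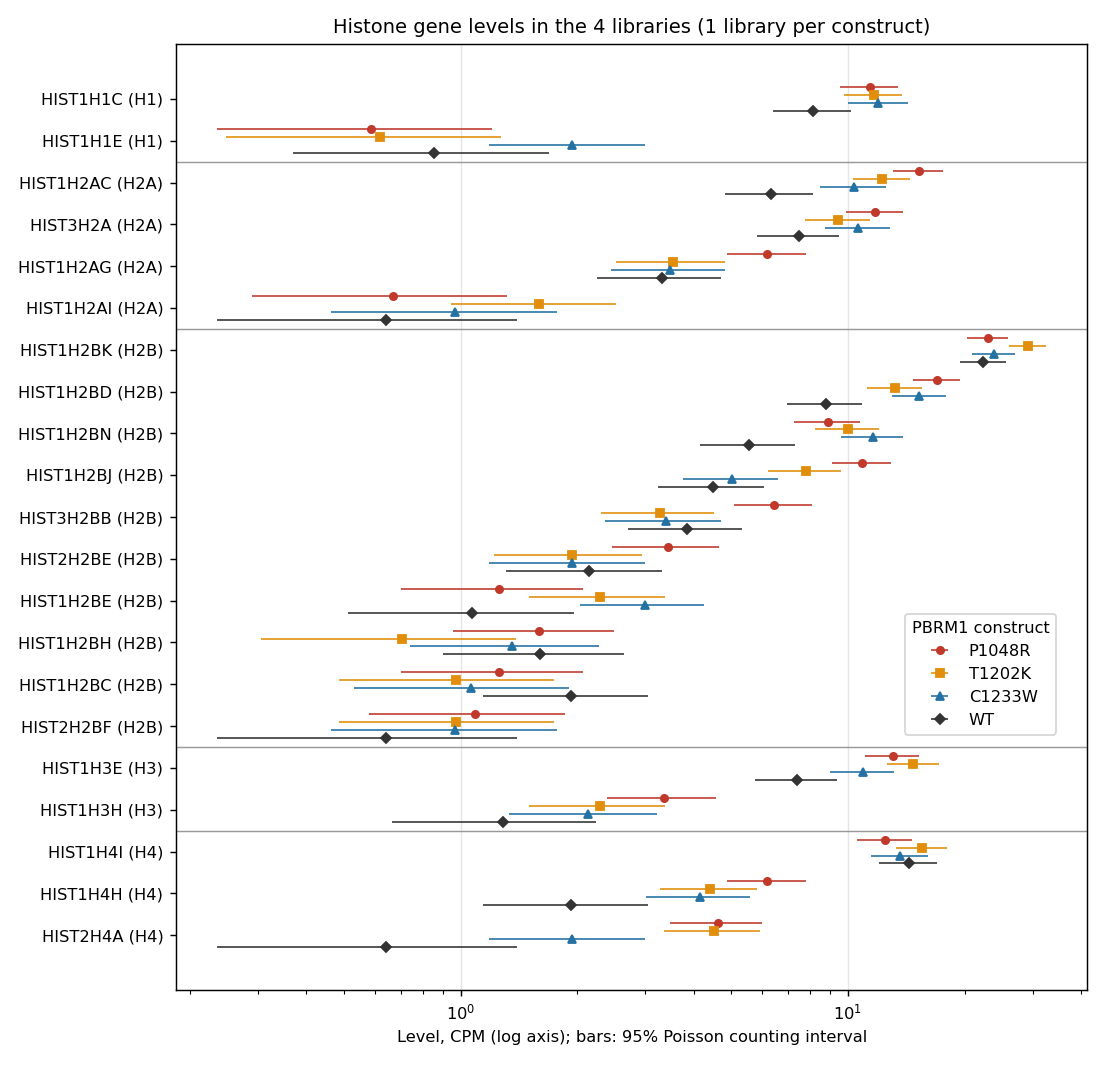
Level in CPM (horizontal, log axis) of the 21 histone genes at 1 CPM in each of the 4 libraries, grouped by family, with points for the libraries and lines for the 95% Poisson counting interval. WT is the lowest point in 15 of the 21 genes, with the widest gap at HIST2H4A (4.61, 4.50 and 1.94 CPM in the mutants and 0.642 CPM in WT).

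Among the H4 genes, which encode a core histone paired with H3 in the nucleosome, HIST2H4A (ENSG00000270882, chr1:149832659-149839767, plus strand) held 55 reads in P1048R, 51 in T1202K and 20 in C1233W, against 6 in WT. Its levels were 4.61, 4.50 and 1.94 CPM in these mutants and 0.642 CPM in WT. WT stood apart from all 3 mutants, and C1233W stood between WT and the other mutants. The log2 ratio to WT was 2.74 (1.63 to 4.35) in P1048R and 2.71 (1.59 to 4.32) in T1202K, while C1233W had 1.51 (0.22 to 3.20). With 6 reads in WT, these intervals are wide. HIST2H4A shares 97.5% of its 50-base words with other genes, mainly its copy HIST2H4B, and overlaps HIST2H3C on the other strand, so reads could be assigned to either. Summed over both copies, the levels were 5.11 CPM in P1048R, 5.03 in T1202K and 2.32 in C1233W, against 0.963 in WT, with log2 ratios of 2.34 (1.39 to 3.60), 2.32 (1.36 to 3.59) and 1.22 (0.11 to 2.56).

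HIST1H4H (ENSG00000158406, chr6:26277609-26285638, minus strand) had 6.20 CPM in P1048R, 4.42 in T1202K and 4.16 in C1233W, against 1.93 in WT. Its log2 ratios to WT were 1.66 (0.93 to 2.52), 1.17 (0.39 to 2.06) and 1.09 (0.29 to 1.99). HIST2H4A and HIST1H4H were the only genes of the 21 past the size rule in all 3 mutants. HIST1H4I, which shares the stem-loop letters of HIST2H4A and was the most abundant H4 gene per length, differed little between the libraries, with 12.5 CPM in P1048R, 15.5 in T1202K and 13.6 in C1233W, against 14.3 in WT. The ratios of HIST1H4I to WT were -0.20 (-0.55 to 0.15), 0.12 (-0.22 to 0.45) and -0.07 (-0.42 to 0.28) on the log2 scale. The 5 H4 genes thus summed to 24.6 CPM in P1048R, 25.3 in T1202K and 20.9 in C1233W, against 17.6 in WT, and the interval of the C1233W ratio reached below 0 (log2 ratio 0.25, interval -0.05 to 0.55).

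In the H3 family, HIST1H3H (chr6:27810064-27811300, plus strand) had 3.35 CPM in P1048R, 2.30 in T1202K and 2.13 in C1233W, against 1.28 in WT. It passed the rule in P1048R, with a log2 ratio of 1.34 (0.42 to 2.45), while 0.81 (-0.20 to 1.96) in T1202K and 0.70 (-0.35 to 1.88) in C1233W did not. HIST1H3E, whose stem-loop letters no other member shares, had 13.1 CPM in P1048R, 14.8 in T1202K and 10.9 in C1233W, against 7.38 in WT. Its ratios of 0.82, 0.99 and 0.56 stayed under the 2-fold line, with intervals above 0 in each mutant. In T1202K it passed the rule under 4 of the 9 alternative settings, at up to 1.17, and in P1048R under total counts, at 1.04. Both H3 genes had WT lowest, and the H3 family summed to 17.2, 17.5 and 14.1 CPM in P1048R, T1202K and C1233W, against 8.99 CPM in WT.

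Of the H2A genes, whose product pairs with H2B, HIST1H2AC (ENSG00000180573, chr6:26124145-26139116, plus strand) had 15.2 CPM in P1048R, 12.3 in T1202K and 10.3 in C1233W, against 6.31 in WT. Its log2 ratios were 1.26 (0.84 to 1.72), 0.95 (0.51 to 1.42) and 0.71 (0.24 to 1.20), and the first passed the rule. HIST3H2A had 11.7 CPM in P1048R, 9.45 in T1202K and 10.6 in C1233W, against 7.49 in WT. HIST1H2AG stood at 6.20 CPM in P1048R, 3.53 in T1202K and 3.48 in C1233W, against 3.32 in WT, so that P1048R alone was high. HIST1H2AI, which shares 62.3% of its 50-base words with HIST1H2AJ, had 0.670 CPM in P1048R, 1.59 in T1202K and 0.967 in C1233W, against 0.642 in WT, with overlapping intervals. Only HIST1H2AC of these 4 passed, and the family summed to 34.3 CPM in P1048R, 27.6 in T1202K and 26.2 in C1233W, against 19.2 in WT.

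H2B was the family with the most reads. HIST1H2BK (ENSG00000197903, chr6:27146418-27146798, minus strand) had the highest mean level per length of all members, 64.5 RPKM (CPM per kilobase of annotated exon), and is annotated as 381 bases without its untranslated ends. It had 22.9 CPM in P1048R, 29.1 in T1202K and 23.8 in C1233W, against 22.4 in WT. The log2 ratios were 0.04 (-0.23 to 0.30), 0.38 (0.13 to 0.64) and 0.09 (-0.18 to 0.36), none of them past the rule. Of its 50-base words, 74.1% also occur in other genes, H2BFS first.

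HIST1H2BD (chr6:26158146-26171349, plus strand), at 15.6 RPKM, had 17.0 CPM in P1048R, 13.2 in T1202K and 15.3 in C1233W, against 8.77 in WT. Its log2 ratios of 0.95 (0.58 to 1.34), 0.59 (0.20 to 1.00) and 0.80 (0.41 to 1.20) all had intervals above 0 and none reached 1. HIST1H2BJ (chr6:27125897-27132750, minus strand) was highest in P1048R, with 10.9 CPM in P1048R, 7.77 in T1202K and 5.03 in C1233W, against 4.49 in WT. It passed against WT in P1048R, at 1.26 (0.76 to 1.81), and not in T1202K, at 0.78 (0.24 to 1.36), or C1233W, at 0.16 (-0.45 to 0.78).

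HIST1H2BN (chr6:27837760-27865798, plus strand) ran the other way, with 8.88 CPM in P1048R, 9.98 in T1202K and 11.6 in C1233W, against 5.56 in WT. Its log2 ratios were 0.67 (0.18 to 1.18), 0.84 (0.36 to 1.35) and 1.05 (0.58 to 1.56), and the last passed. Its annotated span overlaps HIST1H2AL on the same strand and HIST1H2AK on the other. HIST1H2BE (chr6:26172059-26184655, plus strand) had 1.26 CPM in P1048R, 2.30 in T1202K and 3.00 in C1233W, against 1.07 in WT. It passed in C1233W, at 1.44 (0.42 to 2.68), and in T1202K at 1.06, where the lower bound was 0.0017 and the call was lost with 2 in place of 0.5 added to the counts and with thinned counts. The gene overlaps an antisense gene, AL353759.1, and whether the counting used strand is not stated in the sources used here.

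The other H2B genes at 1 CPM showed no ratio past the rule. HIST3H2BB had 6.45 CPM in P1048R, 3.27 in T1202K and 3.39 in C1233W, against 3.85 in WT, and HIST2H2BE had 3.43, 1.94 and 1.94 CPM in these mutants and 2.14 CPM in WT. In both, P1048R was the high library and the others lay close together. HIST1H2BH had 1.59 CPM in P1048R, 0.707 in T1202K and 1.35 in C1233W, against 1.60 in WT. HIST1H2BC had 1.26, 0.971 and 1.06 CPM in the mutants and 1.93 CPM in WT, and HIST2H2BF had 1.09, 0.971 and 0.967 CPM in the mutants and 0.642 CPM in WT. All 14 H2B genes together gave 76.9 CPM in P1048R, 71.6 in T1202K and 69.4 in C1233W, against 53.3 in WT.

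Both H1 genes encode linker histones, which bind the DNA between nucleosomes. HIST1H1C (H1.2; chr6:26055787-26056428, minus strand), at 16.8 RPKM the second in level per length, had 11.4 CPM in P1048R, 11.7 in T1202K and 11.99 in C1233W, against 8.13 in WT. The mutants lay together, at log2 ratios to WT of 0.48 (0.07 to 0.91), 0.52 (0.10 to 0.95) and 0.56 (0.14 to 0.99), and none passed. HIST1H1E (H1.4) had 0.586 CPM in P1048R, 0.618 in T1202K and 1.94 in C1233W, against 0.856 in WT. Here C1233W was the high library.

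**Figure D4:**
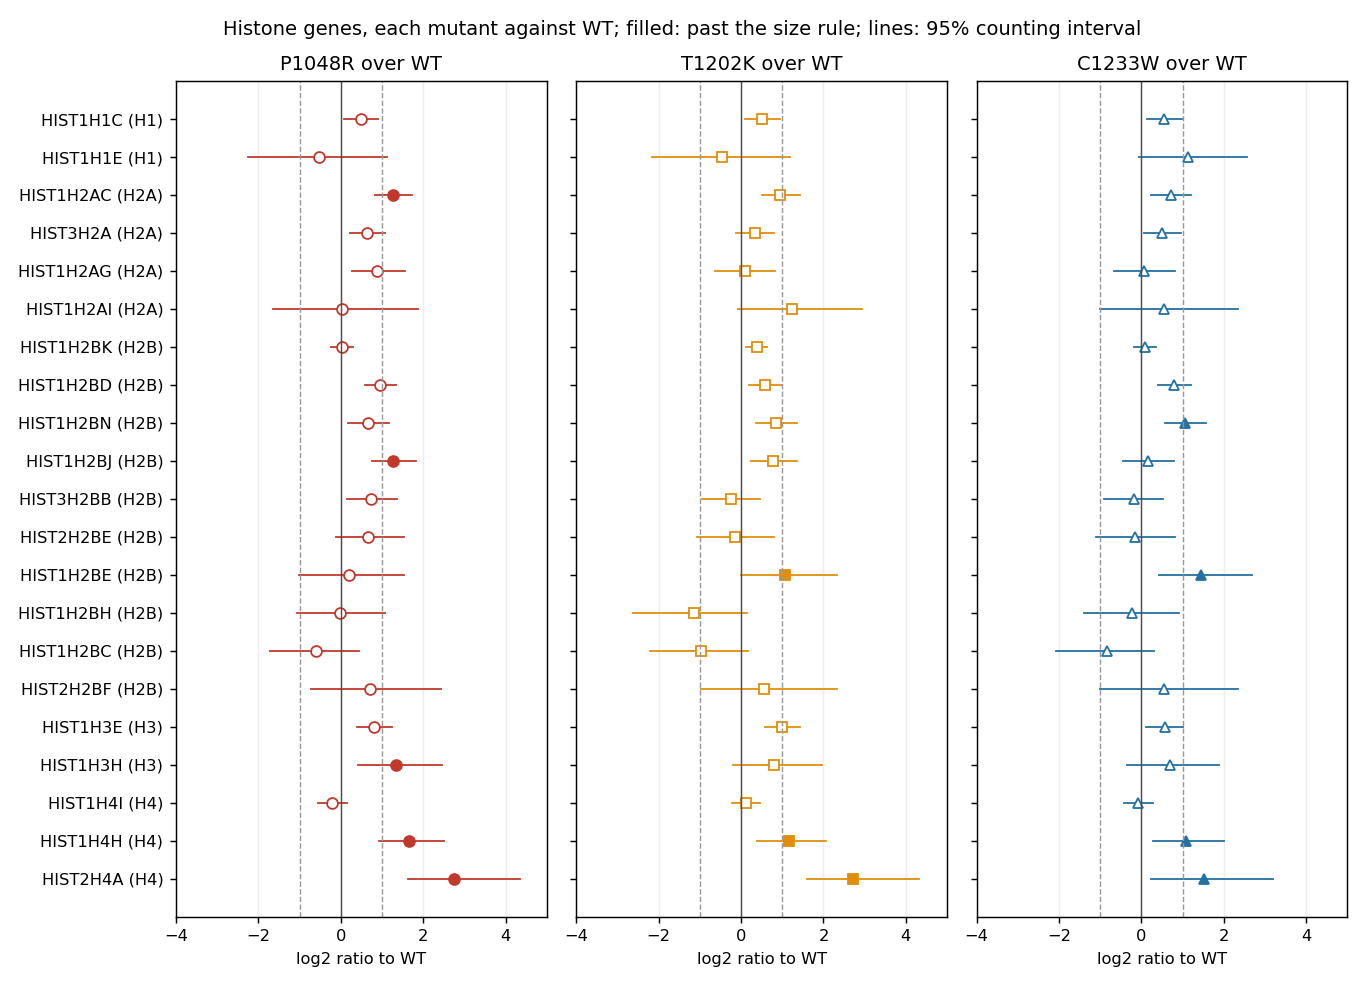
Log2 ratio to WT (horizontal) of the 21 histone genes at 1 CPM, 1 panel per mutant, with lines for the 95% counting interval, dashed lines at 2-fold and filled symbols for ratios past the size rule. Filled symbols number 5 in P1048R, 3 in T1202K and 4 in C1233W, all to the right of 0, and HIST2H4A and HIST1H4H are filled in each panel.

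The 10 members under 1 CPM held 13 to 25 reads each over all libraries: HIST1H2BO, HIST1H4E, HIST2H4B, HIST2H2AC, HIST1H2AL, HIST1H2BF, HIST1H3B, HIST1H2BL, HIST1H2BG and HIST1H3J. Together they had 56 reads in P1048R, 38 in T1202K and 52 in C1233W, against 30 in WT, which is too few to rank them. HIST1H2BG and HIST1H3J, with 13 reads, were just inside the minimum of 10, and HIST1H4K, HIST1H1B, HIST1H2AE and HIST1H1D, with 7 reads, just outside. The 39 rows below the minimum summed to 30 reads in P1048R, 22 in T1202K and 20 in C1233W, against 14 in WT.

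**Figure D5:**
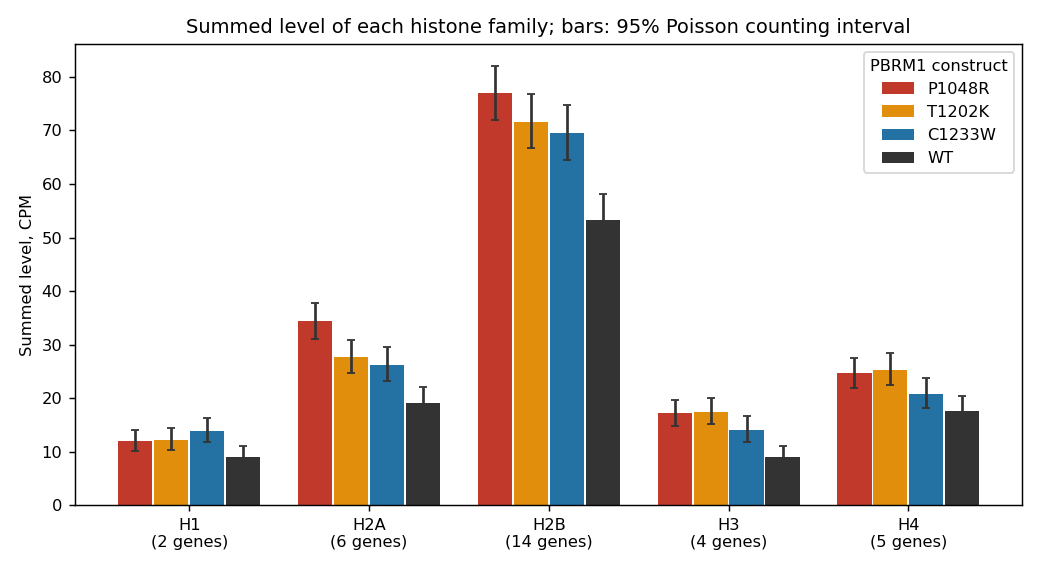
Summed level in CPM (vertical, from 0) of each histone family in the 4 libraries, with bars for 1 library each and error lines for the 95% Poisson counting interval of the summed reads. In every family the WT bar is the lowest, from 8.99 CPM for H1 and for H3 to 53.3 CPM for H2B.

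The mutants were also compared directly with each other. These ratios use no reads of the WT library, although the TMM scaling and the 1 CPM minimum use all 4 libraries. The share of the 21 genes past the size rule was 0% in T1202K over P1048R. It was 19% in C1233W over P1048R and 9.52% in C1233W over T1202K, beside the shares of all genes given below. HIST1H1E, called in both, reached 1 CPM in C1233W alone, the library in which it is high. These shares thus depend on the minimum and are given as a description. In T1202K over P1048R, 0 of 21 passed the size rule (background 1.24%, 0.572% higher and 0.664% lower), and 2 did with thinned counts. In C1233W over P1048R, 4 passed (background 4.54%, 3.73% higher and 0.806% lower): HIST1H1E at 1.66 (0.42 to 3.21) and HIST1H2BE at 1.23 (0.32 to 2.25) were higher in C1233W, and HIST2H4A at -1.23 (-2.07 to -0.49) and HIST1H2BJ at -1.11 (-1.61 to -0.64) were lower. In C1233W over T1202K, 2 passed (background 3.54%, 3.05% higher and 0.486% lower), with HIST1H1E at 1.58 (0.35 to 3.13) higher and HIST2H4A at -1.20 (-2.04 to -0.45) lower. At a minimum of 5 CPM, where 12 members remained, these counts were 1 for C1233W over P1048R and 0 for C1233W over T1202K. The summed reads of the 31 genes were lower in C1233W than in P1048R, with a log2 ratio of -0.19 (-0.29 to -0.09). For C1233W over T1202K this ratio was -0.09 (-0.19 to 0.01), and for T1202K over P1048R it was -0.10 (-0.19 to -0.003).

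Genes that share a promoter region did not always have ratios to WT of the same sign, but each negative ratio below has an interval that includes 0. HIST1H2BC and HIST1H2AC start 218 bases apart on opposite strands, and HIST1H2BC had log2 ratios of -0.61 in P1048R, -0.96 in T1202K and -0.83 in C1233W, where HIST1H2AC had 1.26, 0.95 and 0.71. The ratios of HIST1H2BC rest on 18 reads in WT, and their intervals include 0. In the pair 291 bases apart, HIST1H2BJ had 1.26, 0.78 and 0.16 and HIST1H2AG 0.89, 0.09 and 0.07, both largest in P1048R. HIST3H2A and HIST3H2BB, 233 bases apart, had 0.64 and 0.73 in P1048R, 0.33 and -0.24 in T1202K, and 0.50 and -0.19 in C1233W. The HIST3H2BB intervals were -0.94 to 0.47 in T1202K and -0.90 to 0.53 in C1233W. Other facing pairs of members held a gene under 1 CPM and are left out.

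The genes that act on these histones are given by list. Of 31 listed histone mRNA processing genes, all at 1 CPM, 1 was higher in P1048R (background 4.48%), 1 in T1202K (2.95%) and 0 in C1233W (4.19%), and 0 were lower. A count of 1 in 31 is near the share of all genes. That gene was MBLAC1, a nuclease linked to the 3′ end of histone transcripts, with 66 reads in P1048R, 43 in T1202K and 24 in C1233W, against 15 in WT, at log2 ratios of 1.75 (0.96 to 2.70), 1.21 (0.37 to 2.20) and 0.52 (-0.46 to 1.57). SLBP, the stem-loop binding protein, had 147.2 CPM in P1048R, 150.7 in T1202K and 177.8 in C1233W, against 172.8 in WT. NPAT, the transcriptional coactivator of the clusters, had 65.9, 61.6 and 75.8 CPM in the mutants and 69.2 CPM in WT. In neither was WT the lowest library. Other single genes of these lists went either way, and none of the following passed the rule. WT was the lowest in HINFP, with log2 ratios of 0.28, 0.63 and 0.39 in P1048R, T1202K and C1233W. It was also lowest in E2F1, at 0.73, 0.66 and 0.70, and in ZNF473, at 0.68, 0.67 and 0.52. WT was the highest in E2F3, at -0.17, -0.33 and -0.13. It was also highest in CCNE2, at -0.52, -0.19 and -0.44, and in SNRPD3, at -0.69, -0.50 and -0.51.

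None of 12 histone transcription genes, 26 histone chaperones and 26 S-phase genes passed the rule in any mutant. Of all genes at 1 CPM, 7.5% passed in P1048R, 5.15% in T1202K and 5.4% in C1233W. A count of 0 in a list of 12 or 26 genes is therefore not read as a difference from all genes. The S-phase genes, among them MCM, GINS and nucleotide synthesis genes, had median log2 ratios of 0.01 in P1048R, 0.04 in T1202K and -0.07 in C1233W. The medians were -0.07, 0.05 and 0.02 for the transcription genes, -0.08, -0.11 and -0.19 for the chaperones, and -0.10, 0.04 and -0.12 for the processing genes.

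A further list held 13 histone genes outside these clusters, most of them variants such as H2A.Z and H3.3, with CENPA, H2AFX and HIST4H4 among them. Of these, 11 reached 1 CPM, with medians of -0.30 in P1048R, -0.11 in T1202K and -0.33 in C1233W. H2AFZ had 270.1 CPM in P1048R, 324.3 in T1202K and 278.5 in C1233W, against 399.7 in WT. H1F0, the linker histone H1.0, was the 1 gene of the list past the rule, with 272.0 CPM in P1048R, 262.3 in T1202K and 382.9 in C1233W, against 183.7 in WT. H1F0 passed in C1233W, where 4.19% of all genes at 1 CPM passed upward, and 1 in 11 is near that share. Its log2 ratio was 0.57 in P1048R, 0.51 in T1202K and 1.06 (0.98 to 1.14) in C1233W, and like HIST1H1E it was highest in C1233W.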

How the data were processed

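RNA was measured by sequencing in 4 libraries, 1 per construct. The deposited values are whole-number read counts per gene that the authors left unnormalized. The submitters' processing notes name hg38, HISAT2, Trim Galore and featureCounts without versions. The annotation, the strand setting and how multiply aligned reads were counted are not stated in the sources used here. Library sizes were scaled by TMM in edgeR 4.0.16 under R 4.3.3, ratios and intervals were computed in Python 3.11.15 with scipy 1.17.1, and DESeq2 1.42.0 gave alternative size factors. Intervals of levels are exact Poisson, and those of ratios are Clopper-Pearson. They cover counting error only. PCR copies are not independent molecules, so the intervals can be too narrow even for that error. No p-value was made. The size rule was tested on simulated Poisson counts with planted changes above its minimum, which hold no spread between cultures. Gene models and stem-loops came from GENCODE release 29 (GRCh38), to which all 58735 gene identifiers matched, and promoters from RefSeq.

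Every gene of the rule at 1 CPM is named. Ratios with intervals are given for genes past the size rule against WT and for the 3 with the highest level per length. Listed genes are named when past the rule, and SLBP and NPAT always. H2AFZ, HIST1H3E, HIST1H4I, HINFP, E2F1, ZNF473, E2F3, CCNE2 and SNRPD3 were named or given further values after these were seen. The members and lists were chosen with earlier results of these data known.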

Additional observations from a re-analysis of the deposited data

How the results depend on the processing

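With 1 library per construct, no spread between cultures is known, and 1 CPM corresponded to between 9.35 and 11.9 reads. No paired analysis was possible because each construct has 1 library and the labels give no replicate numbers. Scaling by total counts moved the median of all genes to 0.19, 0.17 and 0.13 in P1048R, T1202K and C1233W, and relative to it the histone medians were 0.70, 0.55 and 0.55. Under that scaling, 8 members passed in P1048R and 7 in T1202K, the median in P1048R was 0.89, and the summed ratios were 0.84, 0.69 and 0.55. With totals that left out PBRM1 and mitochondrially encoded genes, 6 passed in T1202K and the summed ratios were 0.77, 0.64 and 0.58. At a minimum of 5 CPM, 3, 1 and 2 of the 12 remaining members passed against WT in the same order. There 1 passed in C1233W over P1048R and 0 in C1233W over T1202K. Removing the GC and length trend gave 5 in T1202K over WT. In T1202K over P1048R, 1 passed with total counts, with the reduced totals, without a filter or with the trend removed, and 2 with thinned counts. No ratio of a member past the rule changed direction. Wherever the gene met the minimum, 11 of the 12 calls against WT held under all 9 alternatives, the exception being HIST1H2BE in T1202K. Not all of these settings could change a call. Dropping or raising the minimum leaves a gene's own ratio as it was, and summing near-identical copies altered only HIST2H4A among the named genes. Another 8 pairs of gene and mutant passed under at least 1 alternative: HIST1H2BD, HIST1H3E and HIST1H2AG in P1048R, HIST1H2AC, HIST1H3E, HIST1H2AI and HIST1H2BN in T1202K, and HIST1H1E in C1233W.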

Other observations

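Among 19 histone-named rows outside the rule, 11 held reads. The pseudogene HIST2H2BD, with 12.4 CPM in P1048R, 9.01 in T1202K and 8.61 in C1233W, against 5.56 in WT, had log2 ratios of 1.15 (0.69 to 1.64), 0.69 (0.20 to 1.21) and 0.62 (0.12 to 1.15), the same order of libraries as HIST1H2BJ. It shares sequence with HIST2H2BE, so its reads are uncertain. HIST4H4, a single H4 gene outside the clusters, held 9 reads in P1048R, 7 in T1202K and 10 in C1233W, against 12 in WT.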
